A study of Homo sapiens with 18 samples.

Results

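VCaP and LNCaP are established lines of human prostate cancer cells, both of luminal type and both responsive to androgen, and the comparison here is of VCaP with LNCaP in cells that received a control siRNA. It used the 8 arrays labelled siControl among the 18 arrays of the series, and the other 10 arrays, in which CTBP1-AS (an RNA antisense to the gene CTBP1) or PSF (an RNA-binding protein) was knocked down, served only to see whether the same genes differed again. VCaP siControl cells gave 1 array after vehicle (ethanol) and 1 after 1 nM R1881, a synthetic androgen. LNCaP siControl cells gave 3 arrays after vehicle and 3 after R1881, at 10, 1 and 10 nM in replicates 1, 2 and 3. Both lines were transfected 48 h before the hormone and kept for 3 days in serum stripped with charcoal. VCaP was held in DMEM with 5% stripped serum and LNCaP in RPMI with 2.5%. Each replicate number of LNCaP is an array set of its own, and all VCaP arrays form another set, so cell line, medium, serum and array set cannot be told apart for VCaP. The labels do not say that arrays came from separate cultures, so the p-values measure only the spread between these arrays, which may be technical.

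The 2 lines are known to stand for different genetic classes of prostate cancer. VCaP carries a gene fusion that puts ERG, a transcription factor of the ETS family, under the control of an androgen-responsive promoter, whereas LNCaP has a rearrangement that activates another ETS factor, ETV1. ETS factors bind DNA through a shared domain, and those activated by fusion are known to switch on genes of invasion and differentiation in prostate epithelium.

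The sets had been scaled separately: the median log2 signal was 6.25 and 6.23 on the VCaP arrays, against 6.71, 5.73 and 6.8 (vehicle) and 6.69, 5.74 and 6.75 (R1881) on the LNCaP arrays. Levels were therefore compared as percentile ranks, the place of a gene's signal among the 33297 transcript clusters of its own array, from 0 (lowest) to 100 (highest). A rank is not an amount of RNA, and a difference near the top of the scale understates a difference in signal. Ranks of the VCaP arrays correlated with those of LNCaP arrays of the same treatment at Pearson's r of 0.921 to 0.933 (6 pairs, across clusters, which are not independent). LNCaP arrays of different sets correlated at 0.96 to 0.981 within a treatment and at 0.958 to 0.979 between treatments, and the vehicle and R1881 arrays of VCaP at 0.982. VCaP thus stood farther from every LNCaP array than these stood from each other.

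Of 18417 genes with a symbol, 13813 passed a filter on low ranks, and 1704 of them (12.3%) differed between the lines in a limma fit over the 8 arrays with array set as a random block (adjusted p under 0.05). Higher in VCaP were 921 genes (6.67%), and lower were 783 (5.67%). In 323 of the 921 the LNCaP mean alone lay under the filter, and in 129 of the 783 the VCaP mean did. Those genes were tested only because they were high in the other line. The absolute rank difference had a median of 18.3 percentile points among the called genes and 4.1 among all tested genes, and the smallest difference called was 6.0. VCaP is held by 1 set and was assumed to vary between sets as LNCaP does. With the vehicle and R1881 arrays of each set averaged first, which leaves 4 values, 900 genes (6.52%) passed, 803 of them among the 1704. On median-centred log2 signals the count was 1049, of which 68.6% were higher in VCaP, against 54.0% on ranks.

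Within a treatment VCaP has a single array and no spread of its own, so genes were also described by distance alone, with no test. A gene was taken as outside LNCaP when its VCaP rank lay at least 20 percentile points from the nearest of the 3 LNCaP arrays, in the same direction after vehicle and after R1881. This held for 394 genes higher in VCaP (2.85% of those tested) and 151 lower (1.09%). In 269 of the 394 the LNCaP mean alone lay under the filter, and in 85 of the 151 the VCaP mean did, so most of these genes passed the filter through the line where they were high. FBXO15 and ASS1 were just inside the limit, with gaps of -20 and -20.1 points, and GJC1 and SPATA18 just outside, both at -19.8.

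**Figure D1:**
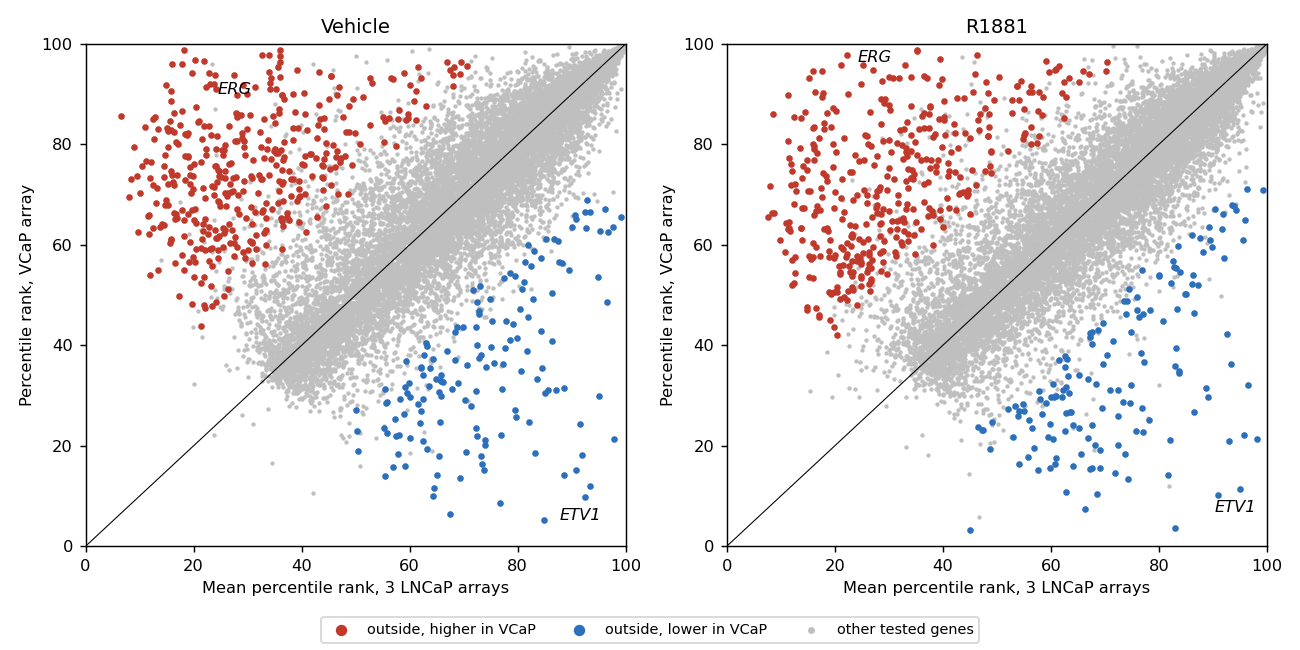
Percentile rank of each tested gene on the VCaP array (vertical axis) against its mean rank on the 3 LNCaP arrays (horizontal axis), for vehicle (left) and R1881 (right), siControl cells. Red and blue points are the 394 genes higher and the 151 genes lower in VCaP by at least 20 percentile points from the nearest LNCaP array in both treatments; grey points are the other tested genes and the line marks equal ranks.

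Markers of cell type were alike in kind in both lines, apart from the neuroendocrine ones. The mean rank of 5 measured luminal markers (KRT8, KRT18, HOXB13, KLK3 and ACP3) was 95.8 to 98.2 on the VCaP arrays and 89.1 to 97.4 on the LNCaP arrays. Basal markers lay at 37.3 to 40.7 in VCaP and 36.5 to 44.4 in LNCaP, leukocyte markers at 28.0 to 29.1 and 27.5 to 34.8, and endothelial markers at 22 to 24.4 and 22.9 to 26.8. Fibroblast markers lay at 34.6 to 44.0 in VCaP and 33.0 to 36.6 in LNCaP. The upper end in VCaP came with LUM, the matrix proteoglycan lumican, at percentile 87.0 after vehicle and 31.0 after R1881, against 12.8 to 36.6 on the LNCaP arrays. Keratins 8 and 18 marked the luminal origin of both lines, with KRT8 at 95.8 and 98.6 in VCaP and 96.5 to 99.6 in LNCaP. Genes tied to the siRNAs of the series were also close: SFPQ, which encodes PSF, lay at 94.5 and 95.2 in VCaP and 91.5 to 94.0 in LNCaP, and CTBP1, a corepressor gene, at 94.1 and 92.5 in VCaP and 83.1 to 92.9 in LNCaP.

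The 12 genes farthest above LNCaP ranked above percentile 80 in VCaP and below percentile 30 in LNCaP on every array. ITM2A, which encodes an integral membrane protein, lay at percentile 98.8 (vehicle) and 94.6 (R1881) in VCaP, against 22.2, 18.8 and 13.7 (vehicle) and 19.3, 16.2 and 12.5 (R1881) in LNCaP. Its rank was 79.6 points higher in VCaP (SE 2.9, limma adjusted p = 2.49e-05). No LNCaP array came within 75.3 points of the VCaP array of its treatment. SCGN, the calcium sensor secretagogin of endocrine and nerve cells, lay at 94.2 and 93.3 in VCaP, against 19.3, 18.6 and 21.6 (vehicle) and 17.3, 12.1 and 16.2 (R1881) in LNCaP (76.2 points higher, SE 2.9, limma adjusted p = 2.67e-05). INA, the neuronal intermediate filament alpha-internexin, lay at 96.0 and 95.8 in VCaP, against 19.0, 15.9 and 18.7 (vehicle) and 17.5, 26.7 and 19.0 (R1881) in LNCaP (76.5 points higher, SE 5.0, limma adjusted p = 0.00019). Both are genes of secretory or nerve cells, and neither had an LNCaP array above percentile 26.7.

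ALDH1A1, which oxidises retinal to retinoic acid, lay at 90.6 and 90.5 in VCaP, against 23.2, 9.9 and 14.2 (vehicle) and 20.3, 14.6 and 13.9 (R1881) in LNCaP (74.5 points higher, SE 4.3, limma adjusted p = 0.000122). TSPAN8, a tetraspanin of the cell surface, lay at 96.6 and 89.9 in VCaP, against 17.6, 24.4 and 23.9 (vehicle) and 12.7, 9.3 and 11.8 (R1881) in LNCaP (76.6 points higher, SE 4.3). In TSPAN8 every R1881 array ranked below every vehicle array of the same line. The others of the 12 were H4C13 (a histone H4 gene whose near-identical copies share sequence, so its value is uncertain), ECHDC1 (a decarboxylase that clears ethylmalonyl-CoA), CNN3 (an actin-binding calponin), CWH43, SLC38A11, PHYHIPL and ERG, with differences of 68.5 to 76.8 points.

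**Figure D2:**
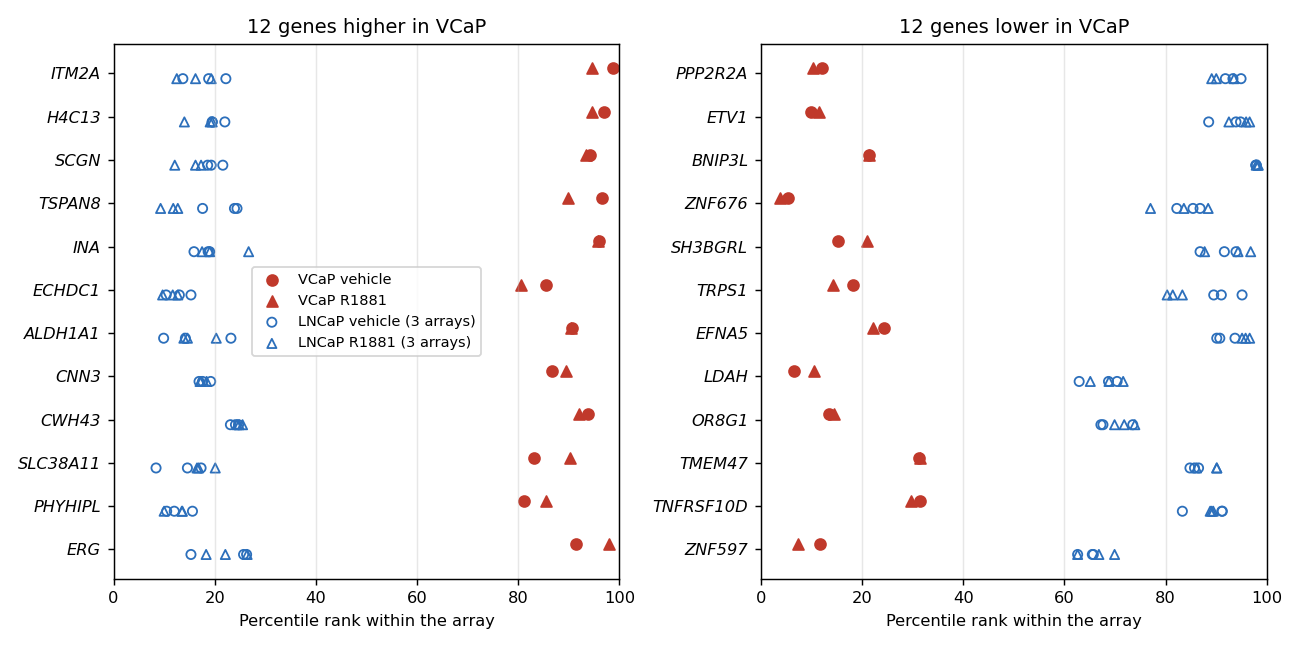
Percentile rank on each of the 8 siControl arrays for the 12 genes farthest above (left) and the 12 farthest below (right) the nearest LNCaP array. Filled red symbols are VCaP and open blue symbols LNCaP, with circles for vehicle and triangles for R1881. The genes were chosen by this gap, so within a treatment the symbols of the lines cannot overlap.

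The 12 genes farthest below LNCaP were led by PPP2R2A, a regulatory subunit of protein phosphatase 2A. It lay at percentile 12 and 10.2 in VCaP, against 94.9, 93.3 and 91.8 (vehicle) and 93.5, 89.1 and 90.0 (R1881) in LNCaP, and was 81.0 points lower in VCaP (difference -81.0, SE 2.1, limma adjusted p = 9.18e-06). BNIP3L, a mitochondrial receptor that marks mitochondria for removal, lay at 21.4 and 21.3 in VCaP, against 97.9, 97.9 and 97.8 (vehicle) and 98.2, 97.9 and 98.3 (R1881) in LNCaP (difference -76.6, SE 1.5, limma adjusted p = 2.45e-06). On quantile-normalized log2 signals these differences were -6.97 and -7.97. The 2 genes follow each other in the RefSeq order of tested genes on chromosome 8 of GRCh38. The tested genes next to them on either side differed by 2.4 points (CDCA2) and -3.6 points (DPYSL2). A little farther off, DOCK5 differed by -18.7 points and NEFL, a neurofilament gene, by 40.3 points. Of the 10 tested genes nearest to PPP2R2A, 6 had negative differences and 2 were called lower.

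TRPS1, a repressor of the GATA family, lay at 18.1 and 14.2 in VCaP, against 91.0, 95.1 and 89.5 (vehicle) and 83.3, 81.4 and 80.3 (R1881) in LNCaP (difference -70.6, SE 3.8, limma adjusted p = 8.69e-05). EFNA5, a membrane-anchored ligand of Eph receptors, lay at 24.3 and 22.1 in VCaP, against 90.1, 93.7 and 90.7 (vehicle) and 95.8, 96.6 and 95.1 (R1881) in LNCaP (difference -70.5, SE 3.3, limma adjusted p = 5.19e-05). TNFRSF10D, a decoy receptor for the death ligand TRAIL, lay at 31.5 and 29.7 in VCaP, against 83.3, 91.2 and 91.1 (vehicle) and 89.1, 88.8 and 89.4 (R1881) in LNCaP (difference -58.2, SE 3.8, limma adjusted p = 0.00019). TNFRSF10B, a death receptor for the same ligand and its neighbour on chromosome 8, was lower too, at 69.2 and 69.9 in VCaP against 85.6 to 95.5 in LNCaP (difference -21.4, SE 3.2, limma adjusted p = 0.00649). TNFRSF10A, the tested gene on the other side of TNFRSF10D, differed by only 1.6 points. SH3BGRL, LDAH (a hydrolase of lipid droplets), TMEM47, OR8G1, ZNF597 and ZNF676 completed the 12 together with ETV1. OR8G1 and ZNF676 belong to families of close relatives, so their values are uncertain. SH3BGRL on the X chromosome lies beside ITM2A with only BRWD3 between them among the tested genes, yet differed by -73.8 points where ITM2A differed by 79.6.

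The 2 ETS factors known to be rearranged in these lines had opposite differences. ERG lay at 91.4 after vehicle and 97.9 after R1881 in VCaP, against 25.7, 26.3 and 15.3 (vehicle) and 22.1, 26.4 and 18.3 (R1881) in LNCaP (72.3 points higher, SE 4.9, limma adjusted p = 0.000212). ETV1 lay at 9.9 and 11.5 in VCaP, against 94.8, 88.5 and 93.9 (vehicle) and 96.6, 92.5 and 95.9 (R1881) in LNCaP (difference -83.0, SE 2.4, limma adjusted p = 9.18e-06), the largest negative difference of all tested genes. These were the highest and lowest differences of the family. Both genes are among those chosen above by their gap to LNCaP, so within a treatment the lines could not overlap. Of all tested genes, 51.0% lay outside all LNCaP arrays by some gap in the same direction in both treatments. Of 13 ETS factors tested, ERG and ELF5 were higher in VCaP, ETV1 was lower, and 10 were not called. ELF5, a factor of glandular epithelium, lay at 78.6 and 78.5 in VCaP and 38.8 to 58.1 in LNCaP (30.8 points higher, SE 5.7, limma adjusted p = 0.0153, and 0.0626 with set means).

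Genes that have been reported as higher in prostate tumours with an ERG fusion had a median difference of 21.2 points in VCaP, against 0.0 over all tested genes. Of 18 tested, 7 were higher and 0 lower, where 6.67% and 5.67% of all tested genes were called. The counts of every list below stand against these shares. Of 23 members measured, 18 passed the filter. TDRD1, ARHGDIB, KCNH8 and NCALD had LNCaP means of 28.2, 11.9, 17.2 and 29.8, under its cut at percentile 35.3. They were tested only because they were high in VCaP, which can raise the median and the count. The list was also chosen with earlier results of these data known, so neither is an independent result. TDRD1, a germline gene of the small-RNA pathway that silences transposons, lay at 93.9 and 92.6 in VCaP, against 33.1, 13.2 and 36.3 (vehicle) and 36.7, 18.9 and 30.8 (R1881) in LNCaP (65.1 points higher, SE 7.8, limma adjusted p = 0.00267). ARHGDIB lay at 76.7 and 72.1 in VCaP and 8.1 to 17.1 in LNCaP (62.5 points higher, SE 3.8, limma adjusted p = 0.000156). PLA1A, a phospholipase, lay at 94.5 and 93.5 in VCaP and 33.8 to 59.3 in LNCaP (47.2 points higher, SE 6.7, limma adjusted p = 0.00545). KCNH8, a potassium channel, was higher by 43.4 points, NCALD, a neuronal calcium sensor, by 32.2, LEF1, a transcription factor of WNT signalling, by 30.5, and AMPD3, an AMP deaminase, by 22. CRISP3, a secreted cysteine-rich protein, was at the top of the scale in VCaP with 99.1 and 99.6, but its LNCaP arrays spread over 84.5, 55.7 and 50.5 (vehicle) and 93.1, 60.6 and 61.2 (R1881), and it was not called on ranks (31.8 points higher, SE 11.9, limma adjusted p = 0.139). On quantile-normalized log2 signals, which do not compress the top of the scale, its difference was 5.25 with limma adjusted p = 0.00942.

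**Figure D3:**
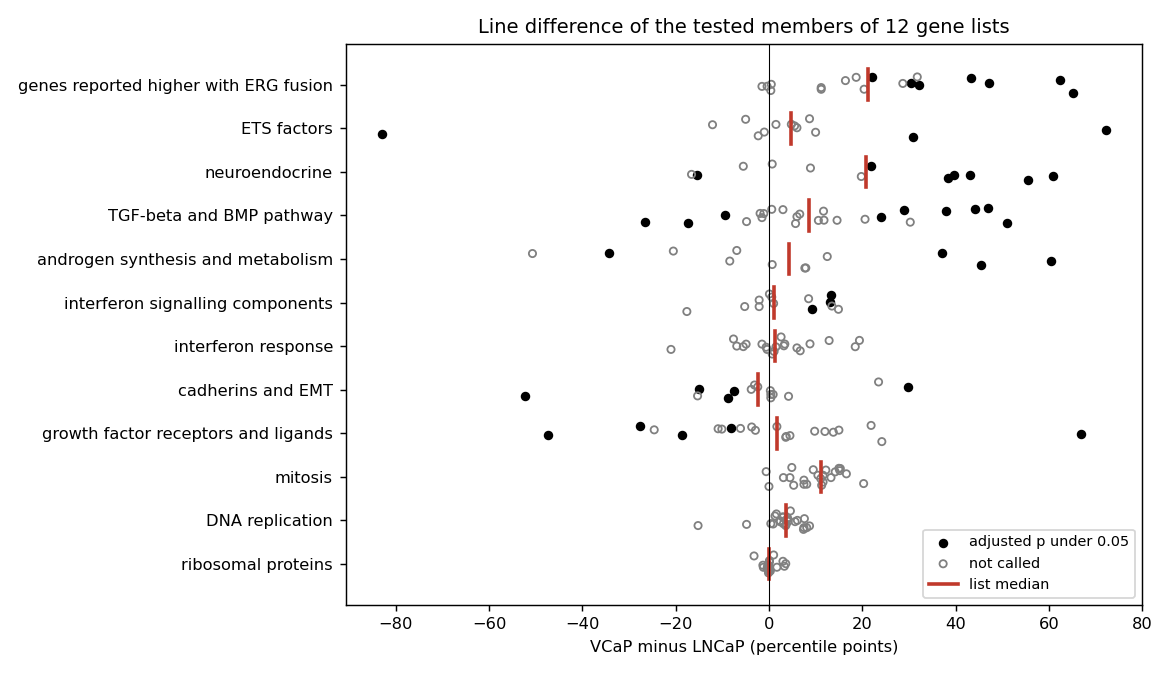
VCaP minus LNCaP rank difference in percentile points (horizontal axis) for each tested member of 12 gene lists (rows), siControl cells. Filled points passed the limma fit, open points did not, and the red bar is the list median; the ERG-fusion and neuroendocrine lists have medians of 21.2 and 20.8 points, the ribosomal protein list 0.0.

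Genes of neuroendocrine cells, which release hormones and peptides from dense-core granules, had a median difference of 20.8 points. Of 12 tested, 6 were higher and 1 was lower, against 6.67% and 5.67% of all tested genes. Of 16 members measured, 12 passed the filter. SCG3, CHGB and CHGA had LNCaP means of 9.1, 23.8 and 27.9, under its cut at percentile 35.3. They were tested only because they were high in VCaP, which can raise the median and the count. This list too was chosen with earlier results of these data known. In RNA from whole cultures, more cells of a kind and more RNA per cell cannot be told apart. SCG3, a secretogranin of these granules, lay at 73.8 and 66.4 in VCaP, against 6.7, 11.7 and 10.0 (vehicle) and 6.2, 10.1 and 9.9 (R1881) in LNCaP (61.0 points higher, SE 3.5, limma adjusted p = 0.000117). CHGB, chromogranin B, lay at 81.8 and 76.7 in VCaP, against 25.3, 20.8 and 23.4 (vehicle) and 27.2, 20.2 and 25.7 (R1881) in LNCaP (55.5 points higher, SE 3.6, limma adjusted p = 0.00019). CHGA, chromogranin A, lay at 70.7 and 64.3 in VCaP and 24.4 to 32.5 in LNCaP (39.6 points higher, SE 4.1, limma adjusted p = 0.00141). All 3 granule proteins ranked lower after R1881 than after vehicle in VCaP, by a single pair of arrays. UCHL1, a neuronal deubiquitinase, was higher by 43.2 points, SYP, the vesicle protein synaptophysin, by 38.4, and SNAP25, a protein of vesicle fusion, by 21.8.

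The list did not move as a whole. SYT4, a synaptotagmin of vesicles, lay at 82.6 and 83.4 in VCaP and 96.1 to 99.5 in LNCaP (difference -15.4, SE 1.8, limma adjusted p = 0.00251). ENO2, neuron-specific enolase, lay at 70.6 and 59.1 in VCaP and 76.1 to 86.1 in LNCaP (difference -16.6, SE 6.4, limma adjusted p = 0.146). INSM1, a transcription factor that drives neuroendocrine differentiation, lay at 65.3 and 72.3 in VCaP and 57.4 to 61.7 in LNCaP (8.9 points, SE 3.3, limma adjusted p = 0.14). NPY, a neuropeptide that some prostate tumours make and which had been placed with the luminal genes, lay at 97.9 and 98.6 in VCaP, against 39.0, 24.8 and 38.1 (vehicle) and 37.2, 29.0 and 39.3 (R1881) in LNCaP (63.7 points higher, SE 4.8, limma adjusted p = 0.000346).

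Genes of luminal prostate identity ranked high in both lines, with a median level of 95.9 in VCaP and 88.9 in LNCaP, and 2 of 19 tested passed, both higher in VCaP. Beside NPY this was TRPM8, a cation channel of prostate epithelium, at 86.3 and 91.7 in VCaP, against 32.2, 41.4 and 33.9 (vehicle) and 49.0, 68.4 and 44.1 (R1881) in LNCaP (44.2 points higher, SE 9.6, limma adjusted p = 0.0269). FOXA1, a pioneer factor of luminal cells, lay at 96.8 and 97.8 in VCaP and 97.1 to 97.9 in LNCaP, and HOXB13, a prostate homeobox factor, at 94.9 and 96.1 in VCaP and 88.0 to 95.1 in LNCaP. KLK3, which encodes prostate-specific antigen, lay at 93.9 and 98.7 in VCaP, against 97.8, 94.6 and 98.9 (vehicle) and 99.5, 99.6 and 99.8 (R1881) in LNCaP. KLK2, its neighbour and relative, lay at 97.7 and 98.7 in VCaP, against 78.4, 60.3 and 77.8 (vehicle) and 94.5, 95.5 and 94.3 (R1881) in LNCaP. The VCaP vehicle array was thus above all LNCaP vehicle arrays for KLK2 and below all of them for KLK3, and neither gene was called (limma adjusted p = 0.509 and 0.658). ACP3, prostatic acid phosphatase, lay at 99.4 and 99.5 in VCaP, against 82.9, 97.3 and 88.4 (vehicle) and 59.4, 94.4 and 74.1 (R1881) in LNCaP (limma adjusted p = 0.431).

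Of 12 tested genes of androgen synthesis and metabolism, 3 were higher in VCaP and 1 was lower. AKR1C3, which makes testosterone from a weaker androgen, lay at 81.9 and 70.7 in VCaP, against 23.1, 23.7 and 9.6 (vehicle) and 16.4, 7.4 and 14.5 (R1881) in LNCaP (60.5 points higher, SE 8.0, limma adjusted p = 0.00411). AKR1C1, a close relative that inactivates dihydrotestosterone, was higher by 37.0 points (SE 6.2, limma adjusted p = 0.0106), and probes may not tell the 2 relatives apart. HSD17B6, a dehydrogenase that can turn a metabolite back into dihydrotestosterone, lay at 89.8 and 71.3 in VCaP, against 41.2, 30 and 37.9 (vehicle) and 40.9, 26.9 and 32.9 (R1881) in LNCaP (45.5 points higher, SE 7.9, limma adjusted p = 0.0119). UGT2B17, which inactivates androgens by adding glucuronic acid, lay at 35.4 and 3.2 in VCaP, against 59.4, 70.6 and 56.1 (vehicle) and 44.1, 51.0 and 40.2 (R1881) in LNCaP (difference -34.3, SE 7.8, limma adjusted p = 0.0313). UGT2B28 lay at 10.7 and 12.1 in VCaP, against 47.7, 56.7 and 22.2 (vehicle) and 86.8, 76.4 and 82.5 (R1881) in LNCaP, and was not called over both treatments (limma adjusted p = 0.187). The UGT2B genes are near-identical, so their values are uncertain.

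Genes listed as repressed by androgen had a median difference of 28.9 points over 13 tested, but 2 were called in each direction. This list was chosen with earlier results of these data known. Its median and the falls after R1881 given below are therefore not independent of that choice. HGF, hepatocyte growth factor, lay at 96.0 (vehicle) and 71.3 (R1881) in VCaP, against 16.4, 15.5 and 16 (vehicle) and 15.7, 21.8 and 14.8 (R1881) in LNCaP (66.9 points higher, SE 11.4, limma adjusted p = 0.0112). CDH2, N-cadherin, lay at 66.8 and 50.1 in VCaP and 27.4 to 31.0 in LNCaP (29.9 points higher, SE 7.6, limma adjusted p = 0.0465). MMP16, a membrane metalloproteinase, lay at 30 and 23 in VCaP, against 97.0, 93.8 and 94.3 (vehicle) and 87.5, 69.5 and 70.0 (R1881) in LNCaP (difference -58.8, SE 8.7, limma adjusted p = 0.00645). The 4th call was UGT2B17. All 4 ranked lower after R1881 than after vehicle in VCaP, by a single pair of arrays, and MMP16 and UGT2B17 did so in every LNCaP set as well. In VCaP, MMP16 lay under the filter cut of 35.3 in both treatments, and UGT2B17 lay close to it after vehicle. With siCTBP1-AS#2, MMP16 lay at 19.1 (vehicle) and 23.4 (R1881) in VCaP, and with siPSF at 25.4 and 18.1. MET, the receptor of HGF, lay at 65.3 and 29.8 in VCaP and 16.2 to 41.8 in LNCaP and was not called (limma adjusted p = 0.347).

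Of 24 tested genes of the TGF-beta and BMP pathway, in which ligands act through receptor kinases and SMAD factors on targets such as the ID genes, 6 were higher in VCaP and 3 were lower. Among the ligands, BMP7 lay at 79.8 and 63.7 in VCaP, against 32.5, 21.3 and 23.5 (vehicle) and 28.4, 22.5 and 20.6 (R1881) in LNCaP (47.0 points higher, SE 7.0, limma adjusted p = 0.00654). TGFB2 was higher by 24.1 points (SE 5.6, limma adjusted p = 0.0337). BMP6 was lower, with a difference of -17.4, and so was GDF15, a stress-induced ligand, at 90.2 and 88.3 in VCaP and 97.0 to 99.5 in LNCaP (-9.5). Among the receptors, TGFBR2 was higher by 28.9 points and TGFBR3, the coreceptor betaglycan, was lower, with a difference of -26.5. Among the targets, 3 inhibitors of bHLH factors were higher. ID4 lay at 89.0 and 86.3 in VCaP and 31.4 to 40.3 in LNCaP (51.0 points, SE 3.3, limma adjusted p = 0.00019), ID1 was higher by 44.1 points and ID3 by 37.9. With set means the calls of ID1, TGFBR2 and GDF15 were lost, with limma adjusted p of 0.0707, 0.0511 and 0.0862. ENG, the coreceptor endoglin, which had been listed as an endothelial marker, lay at 77.5 and 86.0 in VCaP and 44.7 to 49.5 in LNCaP (35.1 points higher, SE 4.0, limma adjusted p = 0.00202), while PECAM1, VWF, CDH5, KDR and TEK ranked under 50 on every array of both lines.

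In the WNT pathway 3 of 30 tested genes were higher and 0 were lower, not far from the 6.67% and 5.67% of all tested genes. FZD4, a receptor, lay at 82.5 and 81.6 in VCaP and 42.1 to 55.6 in LNCaP (33.8 points higher, SE 4.2, limma adjusted p = 0.00309). SFRP1, a secreted antagonist, was higher by 20.3 points (SE 3.1, limma adjusted p = 0.00685), and the nuclear factor LEF1 lay at 96.4 and 95.6 in VCaP and 59.8 to 72.0 in LNCaP. LGR4, a receptor that strengthens WNT signals, lay at 94.3 and 93.9 in VCaP and 61.9 to 81.4 in LNCaP. It was not called on ranks (20.1 points, SE 5.9, limma adjusted p = 0.0707, and 0.184 with set means). On quantile-normalized log2 signals its difference was 2.51 with limma adjusted p = 0.00893.

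Of 21 tested growth factor receptors and ligands, HGF was higher and 4 receptors were lower in VCaP. ERBB3, a partner of other receptors of the EGF family, lay at 60.7 and 61.0 in VCaP, against 86.1, 87.5 and 88.7 (vehicle) and 88.6, 88.2 and 91.2 (R1881) in LNCaP (difference -27.6, SE 1.9, limma adjusted p = 0.000258). ERBB2, its kinase partner, lay at 67.0 and 63.6 in VCaP and 80.9 to 87.6 in LNCaP (-18.7, SE 2.3, limma adjusted p = 0.00319). EPHA3, an Eph receptor, lay at 16.3 and 21.7 in VCaP and 54.4 to 76.9 in LNCaP (-47.4, SE 9.4, limma adjusted p = 0.0192), and the Eph ligand EFNA5 was lower as well, as given above. INSR, the insulin receptor, had a difference of -8.1 (limma adjusted p = 0.0157, and 0.111 with set means).

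Of 15 tested genes of cadherins and the epithelial-mesenchymal transition, 1 was higher and 4 were lower, and they did not move as epithelial or mesenchymal classes. FN1, the matrix protein fibronectin, lay at 48.7 and 36.3 in VCaP, against 98.3, 96.8 and 94.5 (vehicle) and 98.1, 93.0 and 88.7 (R1881) in LNCaP (difference -52.3, SE 4.9, limma adjusted p = 0.000896). TWIST1, a mesenchymal transcription factor, was lower (-15), and so were the junction proteins DSP (desmoplakin, -8.7) and CLDN7 (a claudin, -7.5), while N-cadherin was higher. The calls of DSP and CLDN7 were lost with set means, with limma adjusted p of 0.108 and 0.137. CDH1, E-cadherin, lay at 94.9 and 95.4 in VCaP and 97.0 to 98.2 in LNCaP (-2.4, SE 1.5, limma adjusted p = 0.373). SNAI2, a repressor of E-cadherin, lay at 46.5 (vehicle) and 68.2 (R1881) in VCaP, against 56.1, 46.3 and 51.0 (vehicle) and 95.2, 93.4 and 94.1 (R1881) in LNCaP, so that the lines overlapped after vehicle and not after R1881.

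Among 20 tested integrin and matrix genes, 2 were higher and 2 were lower, again not far from the 6.67% and 5.67% of all tested genes. LAMB1, a laminin chain, lay at 94.9 and 93.5 in VCaP, against 29.8, 53.5 and 34.2 (vehicle) and 30.1, 42.5 and 30.1 (R1881) in LNCaP (57.5 points higher, SE 7.5, limma adjusted p = 0.00374). ITGB8, an integrin that can activate TGF-beta, was higher by 39.9 points (SE 3.2, limma adjusted p = 0.000478). ITGA5, the fibronectin receptor subunit, was lower, at 49.7 and 51.9 in VCaP and 70.0 to 80.2 in LNCaP (-24.0, SE 3.8, limma adjusted p = 0.00879), as was fibronectin. COL6A1, a collagen chain, had a difference of -14.4 (limma adjusted p = 0.0178, and 0.0661 with set means). Of 5 tested basal epithelial genes, DST, a linker of the cytoskeleton, was higher by 45.9 points, and KRT14 and LAMB3 were not called.

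Genes of xenobiotic and glutathione metabolism gave 4 higher and 2 lower of 23 tested. Beside ALDH1A1, the cytochromes CYP1B1 (43.9 points), CYP4B1 (27.4) and CYP2J2 (19.7) were higher, CYP4B1 with a limma adjusted p of 0.0558 with set means. NQO1, a quinone reductase, lay at 67.1 and 71.1 in VCaP, against 98.4, 96.4 and 93.7 (vehicle) and 98.2, 96.0 and 94.8 (R1881) in LNCaP (difference -27.2, SE 2.6, limma adjusted p = 0.000896), and GSTT1, a glutathione transferase, had a difference of -9.3 (limma adjusted p = 0.0487, and 0.149 with set means). In fatty acid synthesis 1 of 16 tested passed: ME1, malic enzyme, was lower (-15.3, limma adjusted p = 0.0241, and 0.0571 with set means). FADS2, a desaturase, lay at 70.5 and 86.5 in VCaP and 96.8 to 99.3 in LNCaP (-19.8, SE 6.3, limma adjusted p = 0.0885), and ELOVL2, an elongase, at 96.0 and 95.5 in VCaP and 29.9 to 77.3 in LNCaP (44.5, SE 14.8, limma adjusted p = 0.103). On quantile-normalized log2 signals both passed, with differences of -3.66 and 4.83 and limma adjusted p of 0.000298 and 0.0183. In cholesterol synthesis 2 of 17 passed, PMVK and LSS, both higher and both lost with set means (limma adjusted p = 0.0633 and 0.126). Among 19 solute carriers and transporters, SLC2A10, a glucose transporter, was higher by 20.2 points, and SLC1A1, SLC7A8 and ABCC1 were lower (-22.6, -16 and -14.5), with SLC7A8 lost with set means (limma adjusted p = 0.123).

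Interferon response genes gave 0 calls of 20 tested in either direction by limma, with 2 at an unadjusted p under 0.05 and a median difference of 1.3 points. Of 13 tested signalling components, 3 receptor chains were higher in VCaP, and all 3 lie on chromosome 21. IFNGR2, a chain of the interferon-gamma receptor, lay at 92.8 and 92.3 in VCaP, against 79.6, 80.8 and 79.8 (vehicle) and 79.4, 78.6 and 78.1 (R1881) in LNCaP (13.1 points higher, SE 1.7, limma adjusted p = 0.0037). IFNAR1 and IFNAR2, the chains of the type I interferon receptor, were higher by 9.2 and 13.3 points, calls that were lost with set means (limma adjusted p = 0.146 and 0.0564). Of 12 antigen presentation genes, ERAP2, a peptidase that trims antigens, was higher (24.0 points, limma adjusted p = 0.019, and 0.0947 with set means).

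Genes of replication and protein synthesis gave no call. Of 24 DNA replication genes and 19 ribosomal protein genes 0 were called by limma, with 0 at an unadjusted p under 0.05 in either list and median differences of 3.7 and 0.0 points. Mitotic genes also gave 0 calls of 23, with 9 at an unadjusted p under 0.05. Their median difference was 11.1 points, and 18 of the 23 ranked above all LNCaP arrays in both treatments and 0 below, where the shares over all tested genes were 26.2% and 24.7%. TOP2A, topoisomerase II alpha, lay at 96.8 and 94.8 in VCaP and 77.5 to 87.7 in LNCaP (15.3 points, SE 4.1, limma adjusted p = 0.0539, and 0.00732 on quantile-normalized log2 signals). MKI67, the proliferation marker, lay at 89.3 and 84.7 in VCaP and 72.1 to 81.7 in LNCaP (11.3 points, SE 5.5, limma adjusted p = 0.237), whereas CDK1, the mitotic kinase, lay at 89.9 and 82.1 in VCaP and 81.5 to 89.9 in LNCaP. Of 18 PI3K pathway genes, PIK3CD, a catalytic subunit (-22.2), and TSC2, a brake on mTOR (-8.3), were lower. Of 6 mismatch repair genes, PMS2 was lower (-9.5). Of 18 cell cycle regulators RBL2, a relative of the retinoblastoma protein, was lower (-9.4). On quantile-normalized log2 signals PIK3CD and TSC2 passed (limma adjusted p = 0.00718 and 0.0492), and PMS2 and RBL2 did not (0.0552 and 0.0558). With set means PIK3CD was kept, and TSC2, PMS2 and RBL2 were lost (limma adjusted p = 0.0983 to 0.115).

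Few other list genes were called. HOXD8 was higher by 20.5 points among 18 HOX genes, which mark position along the body axis. Among 6 cancer-testis antigens TDRD1 was higher and MAGEA10 (-41.3) and MAGEA1 (-35.9) were lower, and the MAGEA genes are near-identical, so their values are uncertain. The call of MAGEA1 was lost with set means (limma adjusted p = 0.105). None of 5 steroid receptor and coregulator genes, 6 fibroblast genes or 3 leukocyte genes passed the limma fit, with 1, 2 and 1 at an unadjusted p under 0.05. Over all lists 77 of 472 tested genes (16.3%) were called against 12.3% of all tested genes, and 55 of the 77 were also called with set means. The lists were chosen with earlier results of these data known, so the 2 shares are not an independent comparison.

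The called genes were unevenly spread over the chromosomes. Chromosome 16 held 100 genes lower in VCaP among 656 tested (15.2%, against 5.67% of all tested genes) and 15 higher (2.3%, against 6.67%). Its median difference was -3.93 points, against 0.0 over all genes. When chromosome 16 was cut in gene order into 4 blocks of 164 tested genes, the blocks had 12.2%, 17.1%, 15.2% and 16.5% of tested genes lower and medians of -3.3, -4.4, -3.5 and -4.8 points, so each block was shifted in the same direction. Among these genes were NQO1, ABCC1, TSC2, RBL2 and ZNF597. On chromosome 21, where ERG and the 3 interferon receptor chains lie, 22 of 170 genes were higher (12.9%) and 7 lower (4.1%), with a median of 3.61 points. The 10 tested genes nearest to ERG all had positive differences, with a median of 4.2 points, but only 1 of them was called. On chromosome 20, 36 of 407 genes were higher (8.8%) and 4 lower (1.0%). On the X chromosome, 51 of 435 were lower (11.7%), 27 of them in the third of 4 such blocks, where 24.8% of the tested genes were lower. These chromosomes were singled out after their values were seen.

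**Figure D4:**
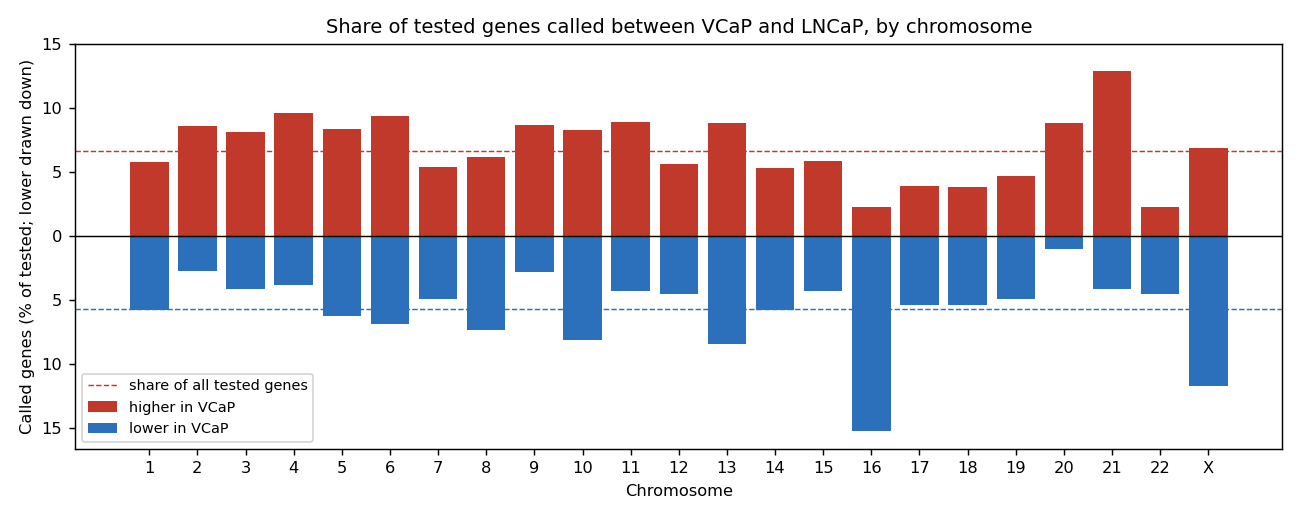
Share of tested genes called higher (upward red bars) and lower (downward blue bars) in VCaP than in LNCaP on each chromosome, in percent, siControl cells. Dashed lines are the shares over all tested genes, 6.67% and 5.67%; chromosome 16 stands out with 15.2% lower and chromosome 21 with 12.9% higher.

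Shorter runs of neighbours shared a direction as well. In windows of 20 neighbouring tested genes, the lowest median was -15.7 points on chromosome 6 from SNRNP48 to MCUR1, where 9 genes were lower and 1 higher. Farther along chromosome 6 the window from SNORD50A to MAP3K7 had a median of 15.3 points, with 8 genes higher and 0 lower. A window on chromosome 8 from INTS9 to ZNF703 had a median of -9.8 points with 9 genes lower, and the last window of chromosome 13, from TUBGCP3 to CHAMP1, had -10.6 with 8 lower. The window of clustered protocadherins on chromosome 5, from PCDHA1 to PCDHB10, had 13.3 points with 9 higher. Transcripts of the PCDHA genes share their last exons, so the calls of this window are not separate measurements. The windows were picked as the extremes of each chromosome.

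The line differences recurred in the knockdown arrays, which the choice of the 545 genes had not used, although they come from the same array sets. Here the gap is to 1 LNCaP array per treatment and not to the nearest of 3, so 20 points are easier to reach. The R1881 dose was 1 nM in both lines with siCTBP1-AS#2, and 1 nM in VCaP against 10 nM in LNCaP with siPSF. Between VCaP and LNCaP cells transfected with siCTBP1-AS#2, 351 of the 394 higher genes (89.1%) again lay at least 20 points above in both treatments, where 4.24% of all tested genes did. Of the 151 lower genes 139 (92.1%) lay at least 20 points below, against 2.53% of all. With siPSF the counts were 363 of 394 (92.1%, against 4.57%) and 135 of 151 (89.4%, against 1.86%). All 545 genes kept their direction in both knockdowns, where with siCTBP1-AS#2 45.8% of all tested genes lay above and 41.0% below LNCaP in both treatments, and with siPSF 41.9% above and 44.7% below. The 4 VCaP knockdown arrays did not overlap the 6 LNCaP knockdown arrays for 383 of the 394 genes (97.2%, against 19.5% of all tested genes) and for 149 of the 151 (98.7%, against 17.6%). The 545 had been picked for large gaps and all tested genes had not, so the shares of all genes are only a background. ERG lay at 89.8 and 96.5 in VCaP against 25.4 and 25.1 in LNCaP with siCTBP1-AS#2, and at 81.3 and 90.3 in VCaP against 15.6 and 15.5 in LNCaP with siPSF (vehicle and R1881 in each case). ETV1 lay at 12.6 and 9.4 in VCaP against 82.2 and 88.9 in LNCaP with siCTBP1-AS#2, and at 14.2 and 13.5 in VCaP against 90.7 and 91.7 in LNCaP with siPSF. Each group here is 1 array, so these are values without a test.

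**Figure D5:**
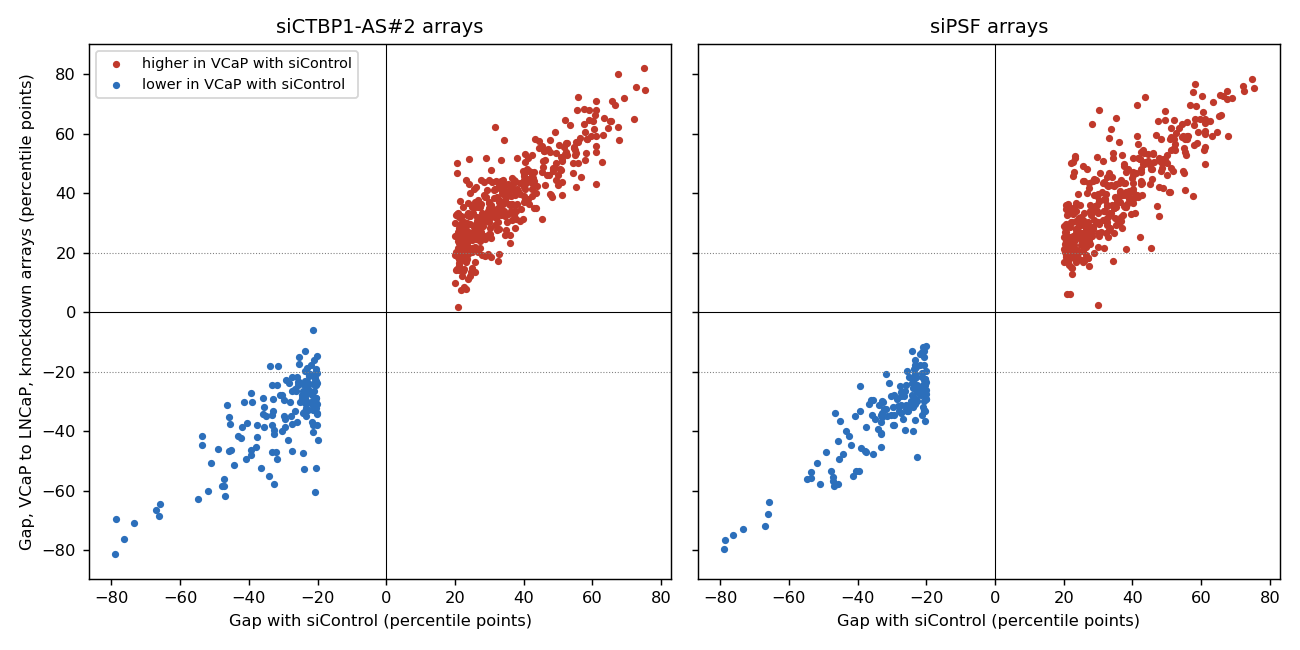
Gap in percentile points between the VCaP and LNCaP arrays of a knockdown (vertical axis: siCTBP1-AS#2 left, siPSF right) against the gap in siControl arrays (horizontal axis), for the 545 genes outside LNCaP, each gap being the smaller of the vehicle and R1881 gaps. All points keep their direction, and dotted lines mark 20 points.

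The response to R1881 was compared between the lines with a product term in the limma fit of the same 8 arrays. It called 80 genes, 28 with a more positive response in VCaP (0.203% of tested genes) and 52 with a more negative one (0.376%). The R1881 dose was 1 nM for VCaP and for LNCaP replicate 2, and 10 nM for LNCaP replicates 1 and 3, and the VCaP response is a difference of 2 arrays. When the response was taken as a difference per set, 0 genes passed in limma (1841 at an unadjusted p under 0.05), so each value below is given with that adjusted p.

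STEAP4, a metalloreductase known to be induced by androgen, had a rank response of 41.2 points in VCaP, against 76.8, 80.9 and 79.2 in LNCaP sets 1 to 3. It reached similar ranks after R1881, 98.2 in VCaP and 90.8 to 94.8 in LNCaP, but started at 57.0 in VCaP and 14.0 to 14.1 in LNCaP (product term -37.7, SE 1.9, limma adjusted p = 0.00291, and 0.105 with differences per set). The smaller rank response of VCaP thus went with a higher start on a bounded scale. WNT2, a WNT ligand, had a response of -52.2 points in VCaP, against 2.0, 6.2 and 4.6 in LNCaP (product term -56.5, SE 2.9, limma adjusted p = 0.00291, and 0.105 with differences per set). It lay at 86.4 after vehicle and 34.2 after R1881 in VCaP and at 12.8 to 24.8 throughout in LNCaP. LUM, CCN3 (a matrix-associated regulator) and LIX1 also ranked lower after R1881 in VCaP, with responses of -56.1, -35.5 and -27.3 in VCaP and -16.5 to 8.8 in LNCaP. On the LNCaP arrays LUM lay at 12.8 to 36.6, CCN3 at 39.5 to 46.9 and LIX1 at 18.9 to 30.6, so 2 of the 3 were near the bottom of the scale in both treatments.

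Of the 5 named genes with a more positive response, 4 had responses of only -3.1 to 5.0 points in LNCaP. On the LNCaP arrays ADGRG2 lay at 17.1 to 22.8 and LIPG at 24.4 to 32.3, under the filter cut at percentile 35.3. CST1 had a LNCaP mean of 34.2, also under it, whereas CST2 lay at 40.9 to 49.4. Ranks under the cut leave little room for a fall but do leave room for a rise. The flat values thus show no rise in LNCaP like that in VCaP, while a fall could have gone unseen. ADGRG2, an adhesion receptor of the male reproductive tract, had a response of 36.7 points in VCaP, against 2.6, 0.0 and 1.6 in LNCaP (product term 35.3, SE 1.8, limma adjusted p = 0.00291, and 0.105 with differences per set). LIPG, endothelial lipase, had 37.3 in VCaP, against -0.1, 3.2 and -3.1 in LNCaP. CST1 and CST2, secreted cystatins that inhibit cysteine proteases, had 38.2 and 37.6 in VCaP and -2.8 to 5.0 in LNCaP, and as close relatives on chromosome 20 they may share probe signal. PLA2G4E, a phospholipase, had 39.9 in VCaP, against 11, 7.4 and 8.8 in LNCaP. For each of the 10 genes the limma adjusted p was 0.00291 to 0.0491 for the product term and 0.105 to 0.2 with differences per set.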

How the data were processed

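Total RNA was labelled with biotin and hybridised to gene-level arrays. The authors deposited 1 log2 signal for each transcript cluster and array; the submitters' processing notes name RMA and Affymetrix Expression Console 1.1.1. Neither the grouping of arrays for RMA nor the time in hormone is given in the sources. The number of arrays limits the precision.

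From these values ranks were computed within each array over 33297 clusters. Of these, 19460 had 1 gene symbol in the platform annotation, 1754 several and 12083 none. Each of 18417 genes was taken by its cluster with the highest mean (769 genes had several clusters). The 25% of genes with the lowest mean of the line means were left out (cut at percentile 35.3). The filter removed 4604 genes, so 13813 were tested. Chromosomes and gene order come from RefSeq on GRCh38.p14.

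Tests used limma 3.58.1 (R 4.3.3, statmod 1.5.0): lmFit and eBayes with terms for line and treatment, array set as a random block (duplicateCorrelation, 0.66 for the line term and 0.76 for the product term), and Benjamini-Hochberg adjustment over all tested genes at 0.05. The steps were tested on simulated data. The replicate numbers pair the LNCaP arrays, since same-numbered arrays share a set in the array names of the labels: the correlation of their deviations from group means was 0.76, 0.83 and 0.7, and for different numbers -0.59 to -0.12. Alternatives were other scales, filters and cluster choices, no block, single treatments, set means and leaving out each set or array.

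Named genes were the 12 called genes in each direction with the largest gap to the nearest LNCaP array, up to 4 called members of each gene list and 2 others with the largest difference, a few fixed marker and target genes, and the 5 largest product terms in each direction. Other list members and neighbours in the text were chosen after their values were seen. The genes and lists were chosen with earlier results of these data known, from general knowledge of these pathways. Some genes meant to be named throughout are not analysed here. Differences are VCaP minus LNCaP.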

Additional observations from a re-analysis of the deposited data

Results flagged for a closer look

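In 10 named genes the R1881 response differed between the lines by the product term of the limma fit. The response was more positive in VCaP than in LNCaP by 37.5 percentile points for CST1, 37.3 for LIPG, 36.1 for CST2, 35.3 for ADGRG2 and 30.9 for PLA2G4E. It was more negative by a product term of -56.5 points for WNT2, -47.6 for LUM, -37.7 for STEAP4, -32.6 for CCN3 and -30.8 for LIX1. None of the 10 passed in limma when the response was taken as a difference per set (adjusted p 0.105 to 0.2) or without the block. VCaP received 1 nM R1881 and LNCaP sets 1 and 3 received 10 nM, and the part of the dose in these differences was not tested. Groups of 3 arrays or fewer were not searched for single arrays that stand apart.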

How the results depend on the processing

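The count of 1704 genes was 3884 with no replicate block, 1049 on median-centred log2, 900 with set means, 635 with vehicle arrays only, 954 with R1881 arrays only and 528 with LNCaP R1881 at 1 nM only. Leaving out an array set gave 880 to 2343, with 880 without LNCaP replicate 3, 1719 without replicate 1 and 2343 without replicate 2, and leaving out a VCaP array 1327 to 1381. Of the calls 54.0% were higher in VCaP, against 68.6% on median-centred log2, 65.0% with LNCaP R1881 at 1 nM only and 47.8% on ranks among genes with 1 symbol. The 545 genes outside LNCaP were 1360 at a gap of 10 points, 283 at 30, 7039 at any gap, and 595 to 690 without 1 LNCaP replicate. The 77 called list genes were 165 with no replicate block, 34 with LNCaP R1881 at 1 nM only and 56 to 109 without 1 LNCaP replicate. The 80 product terms were 166 on normal scores of the ranks, 177 on quantile-normalized log2, 0 with no replicate block (413 at an unadjusted p under 0.05) and 0 with differences per set, an alternative chosen after seeing the data. On those differences 0 to 0 passed in limma without any 1 LNCaP replicate (1513 to 1766 at an unadjusted p under 0.05). The product term at 1 nM only could not be fitted and was not run. The 12 genes farthest above LNCaP and the 12 farthest below kept their direction in all 16 settings. They had been chosen for the largest gaps on these same arrays, so this outcome was given by the choice and is not a check. Some named genes that were not called changed sign between single treatments. PLA2G4E lay at 26.1 in VCaP against a mean of 29.0 in LNCaP after vehicle, and at 66.0 against 38.1 after R1881. EXO1 lay at 75.0 against 61.5 after vehicle and at 47.9 against 54.2 after R1881. The cause of these changes was not tested, beyond the fewer arrays of some settings. Ranks near 0 or 100 leave little room for a difference.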
